A study of Rattus norvegicus with 10 samples.

Results

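Retinoic acid, the active form of vitamin A, was followed through 9 genes that take up its precursor, make it, carry it, break it down or respond to it: Stra6, Aldh1a1, Aldh1a2, Cyp26a1, Cyp26b1, Crabp1, Crabp2, Rara and Rarb. They were chosen by name, and every non-control probe of a one-colour rat array whose RefSeq transcript belongs to one of them was taken. This gave 8 probes, 1 for each of 8 genes, among 30367 probes on the array. Rarb had no probe matched by its transcripts, and its level was not analysed here. All 8 probes were among the 21892 (72.1%) that were well above background on at least 5 of the 10 arrays.

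The RNA was taken from the testes of male rat pups aged 6 postnatal days, born of crosses of Brown Norway fathers with Sprague Dawley mothers. The fathers had been given saline or BEP for 9 weeks and then had 9 weeks of recovery. BEP usually stands for bleomycin, etoposide and cisplatin, the chemotherapy of testicular cancer, although the labels do not name the drugs. The father's code holds the letter C on 5 arrays and T on 5; C is read here as saline and T as BEP, which no label states. Each array has its own father code, and the labels do not tell how many pups an array stands for. If arrays are not separate litters, the p-values measure only the spread between these samples. The pups themselves were untreated as far as the labels say.

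The arrays lay on 2 slides, with 3 C and 2 T arrays on slide 1 and 2 C and 3 T arrays on slide 2. Slide was not a term of the main fit. In a limma fit with group and slide, 24.1% of the 21892 probes tested differed between the slides at an unadjusted p under 0.05. At an adjusted p under 0.05, 2143 probes did. The 75th percentile of the signal, to which each array was scaled, ran from 1525 to 2686 units, with the lowest on C replicate 1. The tissue label was checked with markers of testis cells. All tested probes of these markers (6 of 7 Sertoli cell genes, 5 of 6 Leydig cell genes and 6 of 6 germ cell genes) were well above background on all 10 arrays, while Lhcgr, the luteinising hormone receptor of Leydig cells, was so on 0. The filter already asks for at least 5 such arrays, so the result for tested probes was largely set in advance. Markers of erythroid cells (3 of 3) were also well above background on all 10 arrays, so the check does not single out the testis. In whole testes, fewer cells of a type and less RNA per cell cannot be told apart.

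Cells take up retinol from its binding protein in blood through STRA6, oxidise it to retinal and then, with aldehyde dehydrogenases of the ALDH1A family, to retinoic acid. CRABP proteins carry the acid in the cytosol, receptors of the RAR family bind it in the nucleus and switch on genes together with RXR partners, and CYP26 enzymes remove it. In the testis, retinoic acid drives spermatogonia to differentiate and germ cells to enter meiosis, and CYP26B1 is known for keeping it low in the fetal testis.

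The receptors bind direct repeats of a hexamer on DNA, so the promoters of the members were searched for such repeats. RefSeq promoter windows of the GRCr8 assembly, 250 bases before and 50 bases after the start of each gene, were found for all 9. The hexamer AGGTCA and its variants were searched on both strands (AGTTCA as well as GGTTCA, and besides these GGGTCA), as direct repeats with 1, 2 or 5 bases between them; the hits did not overlap. A repeat was found in 2 of the 9 windows, those of Cyp26a1 and Rarb, and in both it had a spacer of 5. Of all 33469 windows, 0.382% held a repeat with this spacer and 0.777% held any of the 3 kinds. Both genes are known as direct targets of the receptors, and the members were chosen by name. Finding the repeats in them is therefore no independent evidence. The elements, with the half-sites in capitals, read:
Cyp26a1 element: AGTTCAcccaaAGTTCA
Rarb element: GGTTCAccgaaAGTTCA
The Cyp26a1 element lies on the strand opposite to the gene, 92 to 76 bases before its start (chr1:244883730-244883746), and the Rarb element on the gene's own strand, 24 to 40 bases after the start (chr15:11336416-11336432). The 250 bases before the start are shown for the 2 enzymes of breakdown, of which Cyp26a1 holds this element and Cyp26b1 does not. A link between element and level was not tested, since of the genes with an element only Cyp26a1 had a probe. The Cyp26a1 stretch is chr1:244883572-244883821 on the plus strand, and the Cyp26b1 stretch is chr4:118616177-118616426 on the minus strand; capitals mark half-sites of a direct repeat.
Cyp26a1: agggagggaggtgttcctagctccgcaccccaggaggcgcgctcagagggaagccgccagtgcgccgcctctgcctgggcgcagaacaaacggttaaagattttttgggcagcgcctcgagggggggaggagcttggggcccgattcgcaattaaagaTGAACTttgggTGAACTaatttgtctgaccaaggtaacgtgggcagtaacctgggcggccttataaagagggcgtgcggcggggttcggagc
Cyp26b1: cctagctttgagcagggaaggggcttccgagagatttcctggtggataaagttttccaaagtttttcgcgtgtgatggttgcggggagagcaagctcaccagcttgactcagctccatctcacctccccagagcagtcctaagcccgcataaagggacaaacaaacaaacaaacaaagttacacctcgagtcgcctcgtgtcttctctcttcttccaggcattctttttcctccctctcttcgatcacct
The window of Cyp26b1 held 0 copies of even a single half-site, as did those of Aldh1a2, Crabp1 and Crabp2, while 44.4% of all windows held at least 1. The absence of these letters from a window of this length says nothing about elements elsewhere.

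The comparison of T with C arrays asked whether the father's treatment went with another level of these genes in the testis of the son. None of the members differed past the threshold. With limma, 0 of 8 had a Benjamini-Hochberg adjusted p under 0.05 (0% of all 21892 probes tested were called), and 0 of 8 had an unadjusted p under 0.05, which 3.97% of all probes had (1.59% higher and 2.38% lower in the T group). In 0 of 8 did the groups separate without overlap, as they did on 0.722% of all probes. The differences (T minus C, log2) were above 0 for 4 members and below 0 for 4, with a median of -0.024 beside -0.020 over all probes tested. For all 8 the 95% interval of the difference lay within 1.5-fold in either direction, and for 4 of them it lay within 1.25-fold. Over all 21892 probes this held for 18992 and 11993. The interval of Cyp26a1 rests on signals near background and does not bound a change of its transcript. Values below are log2 signals on which 0 is the 75th percentile of the array; they are not comparable between probes.

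**Figure D1:**
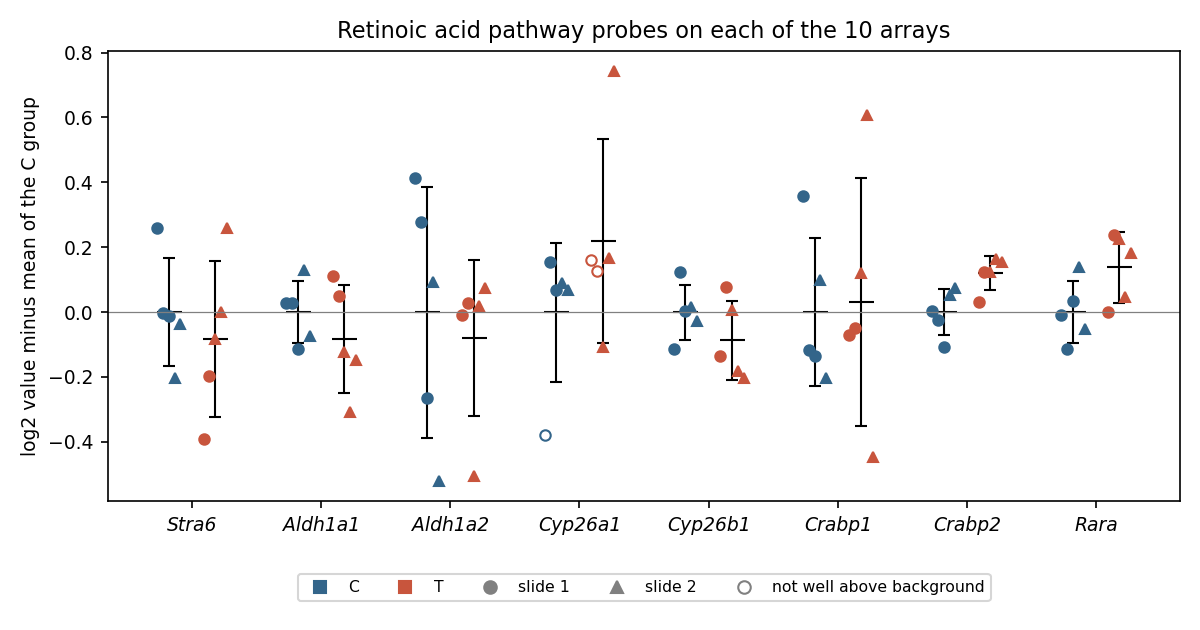
Log2 value of each member's probe on each array minus the mean of the C group (vertical axis), for the 8 genes along the horizontal axis. Blue points are C and red points T arrays, circles slide 1 and triangles slide 2, open points not well above background, and black bars the mean ± SD (n = 5); the groups overlap for every gene, and the spread is widest for Crabp1, Aldh1a2 and Cyp26a1.

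Uptake was represented by Stra6, the membrane receptor that passes retinol from its binding protein into the cell. Its values on C replicates 1 to 5 were 0.045, -0.22, -0.23, -0.42 and -0.25. On T replicates 1 to 5 they were -0.61, -0.41, -0.30, -0.21 and 0.045. The lowest array was a T array and the highest values of both groups were equal to 2 decimals, so the T arrays spanned the whole range. The difference was -0.082 ± 0.12 (SE, 5 arrays per group; 95% interval -0.35 to 0.19; limma, unadjusted p = 0.516, adjusted p = 0.999).

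The slides gave Stra6 opposite differences. On slide 1 both T arrays lay below all 3 C arrays (difference -0.38, limma, unadjusted p = 0.0281), and on slide 2 the difference was 0.18 (unadjusted p = 0.223) with overlapping groups. So few arrays separate easily by chance. The share of all probes that separate within a slide was not counted, here or for the genes below. The interaction of group and slide was 0.56 ± 0.19 (limma, unadjusted p = 0.0176, adjusted p = 0.992). An unadjusted p under 0.05 for this term was found on 3.15% of all probes, and 0 passed after adjustment.

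Synthesis was represented by Aldh1a1 and Aldh1a2, dehydrogenases that turn retinal into retinoic acid. Aldh1a1 stood at 5.47, 5.47, 5.33, 5.58 and 5.37 on C replicates 1 to 5. It stood at 5.56, 5.49, 5.32, 5.14 and 5.30 on T replicates 1 to 5. The T arrays held the lowest 3 values, but the other 2 were above most C arrays. The difference was -0.083 ± 0.087 (95% interval -0.28 to 0.11; limma, unadjusted p = 0.36). The probe was bright, and 0 of its spots were saturated.

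For Aldh1a1, too, the direction differed by slide: on slide 1 both T arrays lay above all 3 C arrays (0.099, limma, unadjusted p = 0.350), and on slide 2 all 3 T arrays lay below both C arrays (-0.22, unadjusted p = 0.0921). Each slide holds few arrays, and the share of all probes with such orders on both slides was not counted. The interaction was -0.32 ± 0.14 (limma, unadjusted p = 0.048, adjusted p = 0.992). With slide as a block the difference was -0.061.

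Aldh1a2, the enzyme that makes most retinoic acid in the embryo, gave a dim but measurable signal on all 10 arrays. Its values were -3.93, -4.06, -4.61, -4.25 and -4.86 on C replicates 1 to 5. They were -4.35, -4.31, -4.85, -4.32 and -4.27 on T replicates 1 to 5. All 5 T values lay within the range of the C values, and T replicate 3 stood apart from the other T arrays, which lay close together. The difference was -0.079 ± 0.18 (95% interval -0.48 to 0.33; limma, unadjusted p = 0.674). It turned to 0.028 without T replicate 3 and to 0.024 without C replicate 1, and it was -0.13 within slide 1 and 0.075 within slide 2.

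**Figure D2:**
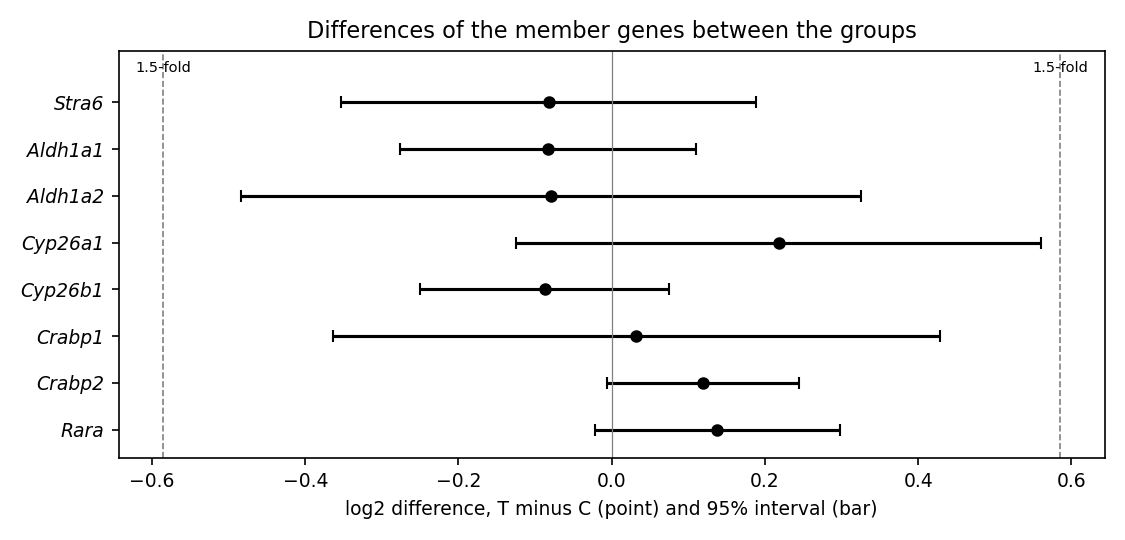
Log2 difference T minus C (horizontal axis) for each of the 8 member genes (vertical axis), with points for the limma estimate and bars for its 95% interval over 5 arrays per group. All intervals include 0 and end inside the dashed lines at a 1.5-fold difference. That of Crabp2 runs from -0.0058 to 0.24, and that of Cyp26a1 rests on signals near background.

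Breakdown was represented by Cyp26a1 and Cyp26b1, cytochrome P450 enzymes that oxidise retinoic acid. Cyp26b1 was measured with 10 spots per array, whose SD was 0.055 at the median array. Its values were 2.99, 3.22, 3.11, 3.12 and 3.08 on C replicates 1 to 5. They were 2.97, 3.18, 3.11, 2.92 and 2.90 on T replicates 1 to 5. On 3 of the T arrays it lay below every C array, and on the other two it did not. The difference of -0.088 ± 0.073 (95% interval -0.25 to 0.075; limma, unadjusted p = 0.259) kept its sign within slide 1 (-0.034) and slide 2 (-0.12).

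Cyp26a1, the gene with the element shown above, was at the limit of detection. It passed the filter through 4 arrays of the C group and 3 of the T group; on C replicate 1 and T replicates 1 and 2 neither of its 2 spots was well above background. Its values were -7.13, -6.60, -6.69, -6.67 and -6.69 on C replicates 1 to 5, and -6.59, -6.63, -6.86, -6.59 and -6.01 on T replicates 1 to 5. The highest signal was on T replicate 5 and the lowest on C replicate 1, the array with the lowest overall brightness. The difference was 0.22 ± 0.15 (95% interval -0.12 to 0.56; limma, unadjusted p = 0.188), and without T replicate 5 it was 0.087. It was 0.052 with normexp background correction, where 50 units are added to every signal, and its size rests on signals near background. Without C replicate 1 it was 0.12.

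Transport in the cytosol was represented by Crabp1 and Crabp2; CRABP2 hands retinoic acid to its receptors, and CRABP1 is held to limit its action. Crabp2 was the member with the smallest unadjusted p. Its values were 3.47, 3.44, 3.36, 3.52 and 3.54 on C replicates 1 to 5. They were 3.50, 3.59, 3.59, 3.63 and 3.62 on T replicates 1 to 5. On 4 of the T arrays it lay above every C array, and T replicate 1 lay between them. The difference was 0.12 ± 0.057, or 1.09-fold (95% interval -0.0058 to 0.24; limma, unadjusted p = 0.0597, adjusted p = 0.999). Within each slide all T arrays lay above all C arrays, with differences of 0.12 on slide 1 and 0.085 on slide 2 (limma, unadjusted p = 0.256 and 0.323). The share of all probes that keep 1 order on both slides was not counted, and so few arrays per slide limit what it can show. Without C replicate 5 the difference was 0.14 (limma, unadjusted p = 0.0496) and without T replicate 1 it was also 0.14 (unadjusted p = 0.0391), neither past the adjusted threshold. Crabp2 was also the steadiest member: its range of 0.27 over the 10 arrays stood at the 12.4th percentile of all tested probes.

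Crabp1 had the widest range among members that were well above background on all arrays, 1.05 beside 0.93 for Aldh1a2, although the SD over the 10 arrays was 0.30 for Crabp1 and 0.31 for Aldh1a2. Its values were -0.30, -0.78, -0.80, -0.56 and -0.86 on C replicates 1 to 5. They were -0.73, -0.71, -0.54, -0.054 and -1.11 on T replicates 1 to 5. Both the highest and the lowest of the 10 were T arrays of slide 2, T replicates 4 and 5, which differed 2.08-fold. The SD of the 10 spots of this probe was at most 0.076 on any array, which covers spot noise but not differences in RNA, labelling or hybridisation. The groups overlapped, and their difference was 0.032 ± 0.18 (95% interval -0.36 to 0.43; limma, unadjusted p = 0.861). It was -0.11 without T replicate 4, 0.15 without T replicate 5 and 0.12 without C replicate 1, and fell just below 0 without C replicate 3 (-0.0014) or C replicate 5 (-0.018).

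**Figure D3:**
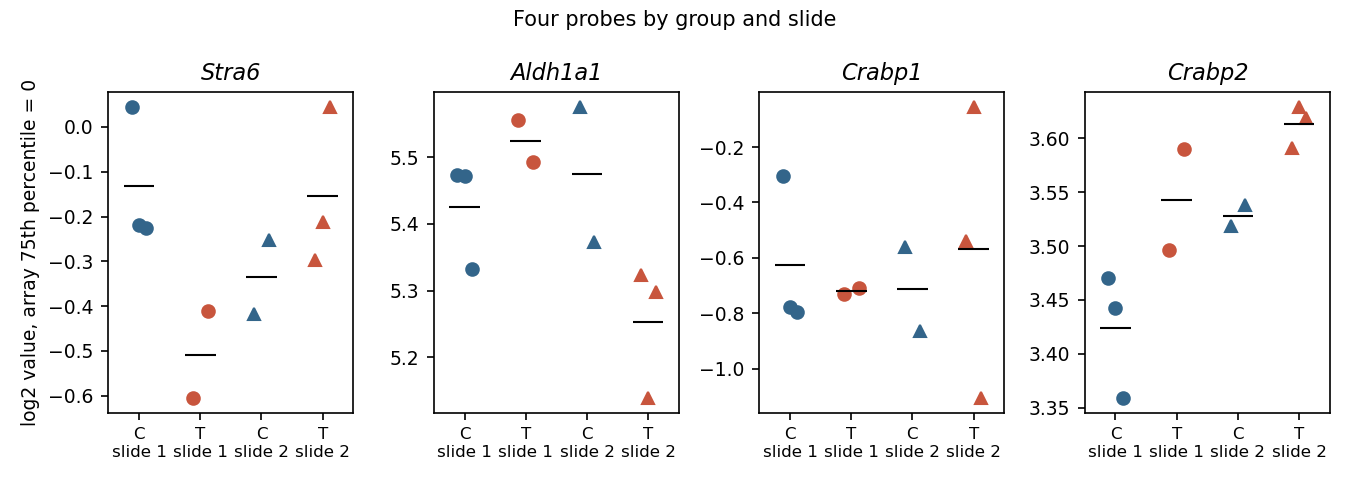
Log2 values of Stra6, Aldh1a1, Crabp1 and Crabp2 (vertical axes, with 0 at the 75th percentile of the array and a separate scale in each panel) by group and slide. Blue points are C and red points T arrays, and lines are means; T lies below C on slide 1 but not on slide 2 for Stra6, the reverse order is seen for Aldh1a1, T lies above C on both slides for Crabp2, and Crabp1 spans its widest range among the T arrays of slide 2.

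Of the member receptors Rara, which acts in Sertoli cells and germ cells of the testis, had a probe and Rarb did not. Its values were 1.19, 1.09, 1.24, 1.34 and 1.15 on C replicates 1 to 5. They were 1.20, 1.44, 1.43, 1.25 and 1.38 on T replicates 1 to 5. On 3 of the T arrays it lay above every C array. The difference was 0.14 ± 0.072, or 1.10-fold (95% interval -0.022 to 0.30; limma, unadjusted p = 0.0838, adjusted p = 0.999), with 0.15 within slide 1 and 0.11 within slide 2. Without C replicate 4 it was 0.17 (limma, unadjusted p = 0.0407) and without T replicate 1 also 0.17 (unadjusted p = 0.0408), both past an unadjusted p of 0.05 but not past the adjusted threshold.

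Members did not vary together to a degree that the 10 arrays could show. Over the 28 pairs, Pearson's r ran from -0.60 (Cyp26a1 and Crabp1) to 0.58 (Crabp2 and Rara), and 0 pairs had a Benjamini-Hochberg adjusted permutation p under 0.05 (lowest 0.968 for Pearson's r and 0.858 for Spearman's rho; unadjusted, 0 and 1 pairs were under 0.05). For Crabp2 and Rara, Spearman's rho was 0.61 (permutation p = 0.0788 for r and 0.0655 for rho), and within the groups, after each group's mean was subtracted, r was 0.26. Over both groups together, without the 2 arrays farthest from the median of Crabp2, r was 0.85, which still holds the difference between the groups. For Cyp26a1 and Crabp1 rho was -0.25 (permutation p = 0.0719 for r and 0.492 for rho), and r within the groups was -0.68. Without the 2 arrays farthest from the median of Cyp26a1 r was 0.090, so that this relation rests on those arrays. The pair with an unadjusted p under 0.05 by rho was Aldh1a1 and Stra6 (rho = -0.67, permutation p = 0.0386, adjusted p = 0.858). All pairs share the scaling of each array, and with 5 arrays a slide holds too few for a value of its own.

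The other genes of the pathway were taken from a list of 55 by role, of which 44 had a probe and 35 were tested. This list was chosen with earlier results of these data known. Its counts, and the shares of all probes given beside its genes here and below, are therefore no independent evidence. With limma, 0 had an adjusted p under 0.05. At an unadjusted p under 0.05 there were 3 genes, 1 higher and 2 lower in the T group, where 4.01% of all 11561 tested genes reached it; the median difference was -0.055. A gene with several tested probes is represented by the one with the highest mean.

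Among carriers and other nuclear receptors, differences were above 0 for 4 of 6 genes (2 of 6 within slide 1) and below 0 for 2. The one with the smallest unadjusted p was Fabp5, a fatty acid binding protein that also carries retinoic acid. Its values were 3.62, 3.72, 3.65, 3.80 and 3.66 on C replicates 1 to 5. They were 3.90, 3.86, 3.92, 3.83 and 3.87 on T replicates 1 to 5. All T arrays lay above all C arrays, a pattern found in this direction on 0.192% of all probes. The difference was 0.19 ± 0.054, or 1.14-fold (limma, unadjusted p = 0.00567, adjusted p = 0.999), with 0.22 within slide 1 and 0.15 within slide 2.

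Of the coregulators, proteins that the receptors recruit, 4 of 4 tested had a difference below 0, as under each other scaling; within slide 1 this held for 2 of 4, and with the father number as a block for 1 of 4. Nrip1, a corepressor that binds the receptors together with their ligand, was -1.58, -1.85, -1.87, -1.71 and -1.95 on C replicates 1 to 5. It was -2.01, -2.09, -2.07, -2.09 and -2.29 on T replicates 1 to 5, all below every C array, which was so on 0.53% of all probes. The difference was -0.32 ± 0.084 (limma, unadjusted p = 0.00309, adjusted p = 0.999), with -0.29 within slide 1 and -0.32 within slide 2. A second Nrip1 probe gave -0.077 ± 0.12, so the size depends on the probe.

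The mean deviation of the 6 germ cell marker genes also separated the groups, with the T arrays higher. It ran from -0.17 to -0.048 on the C arrays and from -0.0028 to 0.25 on the T arrays. Single probes separated without overlap on 0.722% of all probes, and how often a mean over 6 genes does so was not counted. For the other 10 marker lists, of Sertoli, Leydig, peritubular myoid, endothelial, macrophage, mesothelial, duct, fat, muscle and erythroid cells, the ranges of the groups overlapped. The list was chosen with earlier results of these arrays known and is no independent evidence. The part of germ cell content in the values of Fabp5, Nrip1, Crabp2, Rara and Rec8 was not tested.

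Of 10 tested enzymes that convert retinol and retinal, 9 had a difference below 0, and Adh5, an alcohol dehydrogenase, was the exception at 0.031. With normexp 8 of 10 were below 0, as within either slide, and with the father number as a block 7 of 10 were. Over all tested genes 53.9% were lower. Rdh14, a retinol dehydrogenase, had the smallest unadjusted p (-0.18 ± 0.080; limma, unadjusted p = 0.0447, adjusted p = 0.999), and without C replicate 1, its highest array, the difference was -0.12 (unadjusted p = 0.0815); its unadjusted p was under 0.05 under 8 of 21 alternatives. The median of the 10 was -0.088. A second probe of Rdh11, another retinol dehydrogenase, gave 0.065 where the first gave -0.094.

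**Figure D4:**
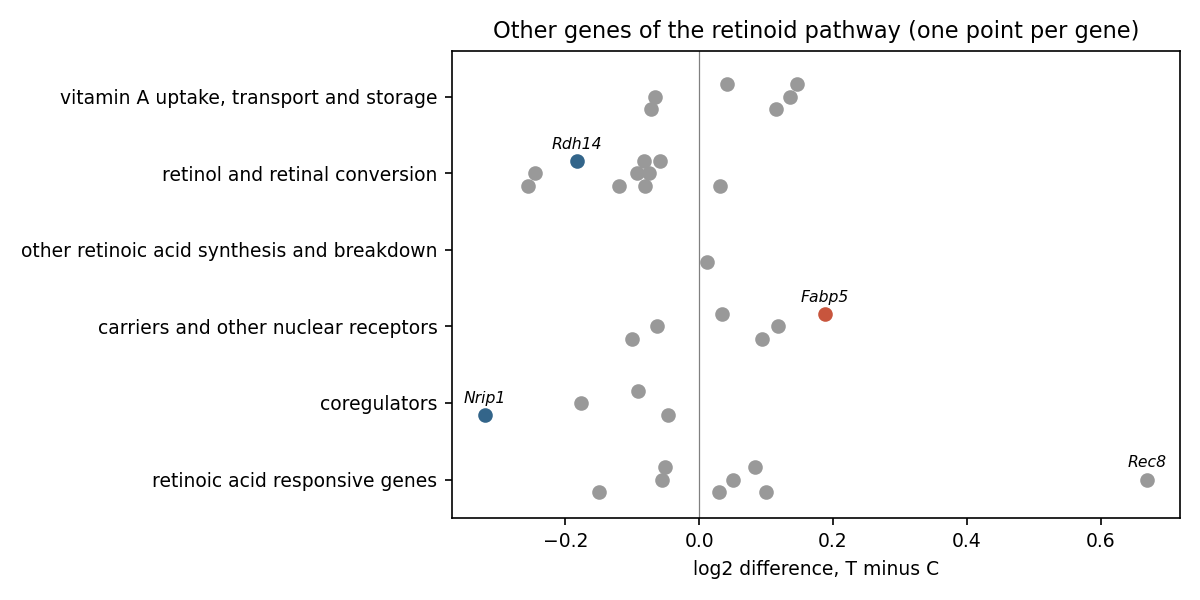
Log2 difference T minus C (horizontal axis) of the 35 other tested genes of the pathway, 1 point per gene, by role (vertical axis; the offset within a role only separates points). Coloured points have an unadjusted p under 0.05 (red higher, blue lower in T) and grey points do not; 9 of the 10 conversion enzymes lie left of 0, and Rec8, at 0.67, lies farthest from 0.

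For vitamin A uptake, transport and storage, 4 of 6 genes had a difference above 0 (2 of 6 within slide 2), with the smallest unadjusted p for Bco2, which cleaves carotenoids (0.14 ± 0.12; limma, unadjusted p = 0.274). Aldh1a3, the remaining tested enzyme of synthesis, was dim and stood at 0.012 ± 0.28. Of 8 tested genes known to respond to retinoic acid, 5 had a difference above 0 and 3 below 0. With the father number as a block 2 were above 0 and 6 below, and within either slide 4 and 4. Rec8, a cohesin subunit of meiosis, gave the widest difference of the list over all 10 arrays. Its values were -6.62, -5.68, -6.18, -5.13 and -5.63 on C replicates 1 to 5. They were -5.72, -5.44, -4.999, -5.49 and -4.25 on T replicates 1 to 5. The groups overlapped, and the difference was 0.67 ± 0.32 (95% interval -0.038 to 1.38; limma, unadjusted p = 0.0614, adjusted p = 0.999). With the father number as a block, over 6 arrays, it was 0.094 (limma, unadjusted p = 0.407), a smaller difference than that of Nrip1 (-0.22) or Aldh1a3 (0.21) in the same fit. It was 0.44 without T replicate 5, the highest array, and 0.30 with normexp. Without C replicate 4 it was 0.85 and without T replicate 1 it was 0.80, both at an unadjusted p under 0.05.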

How the data were processed

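Gene expression was measured with 10 one-colour (Cy3) Agilent arrays. The deposited scanner files hold spot intensities from Agilent Feature Extraction 10.7.3.1, per the file headers, with the background subtracted and no scaling between arrays. Headers of 5 files, those of slide 1, name rn4 as the genome build of the design. A second table holds the authors' processed log2 values, centred per probe, for 21220 probes; their scaling between arrays stays unknown, and column medians ran from -0.017 to 0.029. It tracked the centred scanner values (correlations of 0.998 to 0.999) and served as an alternative.

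From log2 of the processed signal, the 75th percentile over the 58717 non-control spots of the same array was taken off. Outlier-flagged spots (494 to 745 per array) were dropped, 0 were saturated, and the spots of each probe were averaged. A probe counted as well above background on an array if at least 0.5 of its spots were, and was tested if this held on 5 arrays. Genes were named by looking up unversioned transcript accessions in the GRCr8 table of RefSeq, which gave 17998 probes a symbol. Groups were compared in R 4.3.3 by limma 3.58.1, using its lmFit and eBayes functions (two-sided, Benjamini-Hochberg over all 21892 probes, threshold 0.05) without a covariate, and the fit was checked on simulated data. No label states a test. The number of arrays limits the precision.

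The members and lists were chosen with earlier results of these data known. Other pathway genes were named if their unadjusted p was under 0.05 or the groups did not overlap, or if theirs was the smallest p of a role; Adh5, Rdh11 and Lhcgr were named after their values were seen. Alternatives were the scaling, background correction, filter, flagged spots, slide, the authors' values, the variance model, the father numbers as a block and leaving out each array; normexp used the median spot signal. The interaction of group and slide was added after seeing the data. The father numbers 2, 4 and 6 occur in both groups, but nothing says that they pair the arrays.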

Additional observations from a re-analysis of the deposited data

Results flagged for a closer look

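A gap between 1 array and the other 4 of its group that exceeded Dixon's 95% limit (0.71 of the group's range) was found in 3 of 28 groups of 5, where chance gives about 1 in 20. Aldh1a2 on T replicate 3 stood at -4.85, with the nearest T array at -4.35 (0.856 of the range). Cyp26a1 on C replicate 1 stood at -7.13, with the nearest C array at -6.69 (0.837 of the range), and neither of its spots was well above background there. Rdh14 on C replicate 1 stood at -2.10, with the nearest C array at -2.38 (0.741 of the range).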

How the results depend on the processing

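The count of members past the adjusted threshold was 0 under all 21 alternatives. The count of members at an unadjusted p under 0.05 was 0, but it was 1 within slide 1 (Stra6) and 1 with a trend and robust variance (Crabp2), and it ran from 0 to 2 when each array was left out, with 2 (Crabp2 and Rara) without T replicate 1. For probes of the pathway list the count was 3; it was 1 within slide 2 and ran from 2 to 5 when each array was left out, with 5 without C replicate 3. The causes were not tested.

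Crabp2, Rara, Cyp26b1, Fabp5, Nrip1, Rdh14, Bco2 and Rec8 kept their sign under every alternative run, from 0.059 to 0.14 for Crabp2 and from 0.11 to 0.17 for Rara, but Rec8 ran from 0.094 (father number as a block) to 0.85. Signs turned for Aldh1a1 within slide 1 (0.099), Aldh1a2 within slide 2 (0.075), Crabp1 within slide 1 (-0.095), Stra6 within slide 2 (0.18) and Aldh1a3 within slide 1 (-0.026) and with quantile normalization (-0.015). With the father number as a replicate block, over the 6 arrays whose number occurs in both groups, Cyp26a1 turned to -0.043, Crabp2 stood at 0.059 and 0 members had an unadjusted p under 0.05. Same-numbered arrays deviated together for 2 of the 3 numbers only (correlations of -0.51, 0.28 and 0.19 for numbers 2, 4 and 6). The arrays of number 2 lay on different slides, and those of numbers 4 and 6 each shared a slide. These values therefore cannot show whether the numbers pair the arrays. No label states a pairing, and the numbers were not taken as pairs. Leaving out each array gave -0.21 to 0.028 for Aldh1a2, -0.11 to 0.15 for Crabp1 and -0.16 to 0.20 for Aldh1a3, whose sign turned on leaving out C replicate 3, C replicate 5 or T replicate 1, 3 or 4 alone. Fabp5 missed an unadjusted p of 0.05 within either slide and with the block, and Nrip1 within slide 1 and with the block. Cyp26a1 and Aldh1a3 have no value in the authors' table and among probes well above background on all arrays. For Cyp26a1, Rec8 and Aldh1a3 the low signal over background limits what the arrays can show.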

Other observations

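For the 3 members with the widest range over the arrays, the 5 genes (uncharacterised loci left out) with the most similar pattern over the 10 arrays were listed, out of 11561 tested genes; these are the highest of many values and are given as a description. For Aldh1a2 they were Ebf2 (Pearson's r = 0.946), Igfbp2 (0.935), Aipl1 (0.925), Or4f58 (0.902) and Or52n4d (0.880), and without the array highest in Aldh1a2 these values were between 0.861 and 0.925. For Crabp1 they were Faf1 (0.906), Or2t48b (0.897), Ddr2 (0.885), Apln (0.852) and Nlrp4 (0.849), and without T replicate 4 these values were between 0.680 and 0.883. For Cyp26a1 they were Asic4 (0.962), Nusap1 (0.959), C5h9orf43 (0.945), Cenpq (0.925) and Slc17a5 (0.917), and without T replicate 5 these values were between 0.783 and 0.899.

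The share of G and C in the promoter windows of the members was above the median of all windows (51.7%) for 8 of 9, among them Cyp26b1 (52.7%) and Stra6 (53.7%) close to it, with a range from 48.3% for Aldh1a1 to 76.0% for Aldh1a2.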
